A study of Homo sapiens with 16 samples.

Results

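The comparison described here set MCF10A cells given fibrillar collagen together with the DDR1 kinase inhibitor DDR1-IN-1 (DDR1i) against cells given neither, and so measured the net change from vehicle-treated cells after both agents. It used 8 of the 16 RNA-seq libraries of the series, namely the 4 labelled Collagen 1 and DDR1i Treated and the 4 labelled Control. The 8 remaining libraries, from cells given collagen alone or collagen with a RUNX inhibitor, were kept out of the fit. MCF10A is a human breast epithelial line that became immortal in culture without becoming tumorigenic, with basal character and labelled diploid. All cells grew in a medium with insulin, EGF, hydrocortisone, cholera toxin and horse serum. Treated cells received DDR1i at 2 μM for 48 h, with collagen I at 0.05 mg/mL and NaOH for its polymerization during the last 24 h, doses and total time as the study's methods give them. Control cells received DMSO, changes of normal medium and no collagen. At harvest, per the methods, collagen was removed and cells were lifted with trypsin-EDTA. Collagen, its removal, the NaOH-containing medium and the inhibitor therefore differed between the groups together. Their shares in a difference cannot be told apart in this comparison. The study asked whether DDR1 and RUNX1 regulate overlapping sets of genes.

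DDR1 is a receptor tyrosine kinase that binds collagen directly and becomes phosphorylated slowly and for a long time after binding. DDR1-IN-1 occupies its kinase domain. RUNX1 is a DNA-binding transcription factor that works with its partner CBFB and is highly expressed in basal mammary epithelium. Basal mammary cells make keratins 5 and 14, rest on a laminin-rich basement membrane, and raise immediate early genes within minutes of growth factor or adhesion signals that pass through the ERK kinases.

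After filtering of low counts, 12849 of 26475 listed genes were tested with edgeR's quasi-likelihood test and Benjamini-Hochberg adjustment. At an adjusted p under 0.05 a gene was called changed, and 14 genes (0.109% of those tested) were. The 10 genes called higher (0.0778%) were EGR1, PLAU, IER3, AXL, FOSL1, VIM, IER2, C15orf52, MGLL and MT2A. The 4 called lower (0.0311%) were KRT16, KRT14, AKR1C2 and FGFR3. At an unadjusted p under 0.05 there were 610 genes (4.75%), 308 higher (2.4%) and 302 lower (2.35%). All 4 treated libraries lay above all 4 controls for 224 genes (1.74%) and below them for 197 (1.53%). DESeq2, the tool of the study's own analysis, called 69 of 18202 genes with a p-value (0.379%) on the same libraries. Of the 69, 43 were higher and 26 lower, with all 14 among them. DESeq2 may give genes at low counts no adjusted p, so the share among genes with an adjusted p may be higher than 0.379%. Below, called means called by edgeR unless DESeq2 is named. The median log2 fold change of all tested genes was 0.0019, and the middle 90% lay between -0.56 and 0.72. Levels are given as CPM, a library's counts rescaled to a common total after TMM scaling. With the trend over transcript length removed, which shifted the median of all genes to -0.10, there were 9 called genes, 4 higher and 5 lower, and 7 of the 14 were among them.

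**Figure D1:**
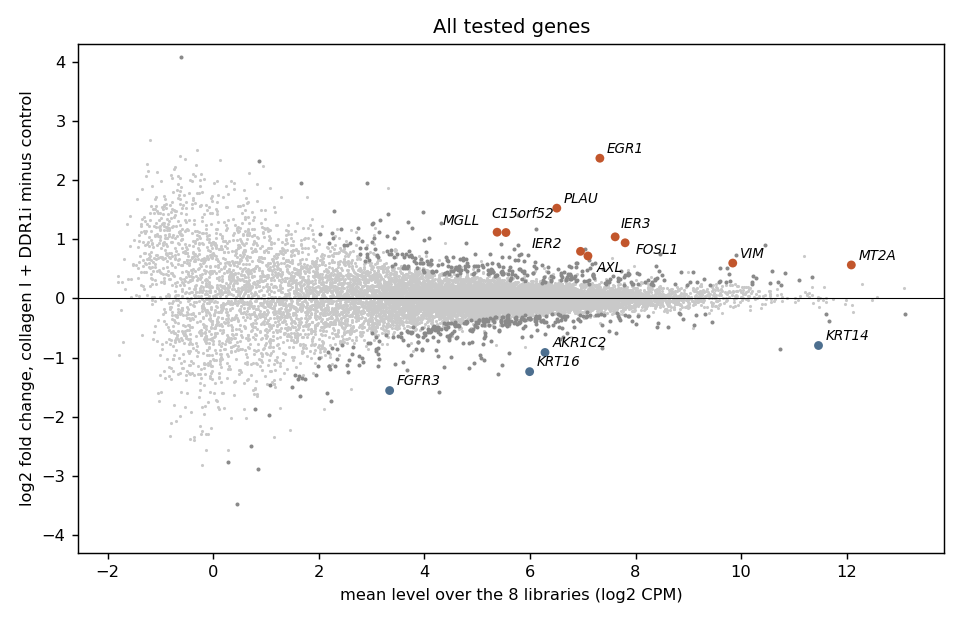
Each point is 1 of the 12849 tested genes, with its mean level over the 8 libraries in log2 CPM on the horizontal axis and its log2 fold change, collagen with DDR1i minus control, on the vertical axis. Dark grey points have an unadjusted p under 0.05, and the coloured points with names are the 10 genes called higher (orange) and the 4 called lower (blue), which range from 2.37 for EGR1 to -1.56 for FGFR3.

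The libraries differed in depth, and more so among the controls. Total counts ran from 12184619 to 44332378 in the controls and from 16173156 to 24133596 in the treated libraries. Control replicates 2 and 3 were the sparsest, with 12074 and 12480 genes detected against 13617 to 17133 in the other 6, and had no count for 1088 and 810 of the tested genes. They also stood apart from the other 6 libraries on the first pair of principal components, which held 50.1% and 31.5% of the variance among the 500 most variable genes. Leaving both out left 3 called genes, PLAU, KRT16 and SLC7A11, and the 14 called genes are given with that setting below. Most genes not called are given without it, and some of them moved either way. The edgeR adjusted p of PPL went from 0.0554 to 0.557, and that of S100A8 from 0.295 to 0.0669. Leaving out 1 library also moved the count. There were 2 called genes without control replicate 2 (PLAU and EGR1), 3 without control replicate 1 (PLAU, EGR1 and KRT14) and 3 without treated replicate 3 (PLAU, EGR1 and AKR1C2). Without treated replicate 1 there were 5 (PLAU, EGR1, KRT14, AXL and C15orf52), and without treated replicate 4 there were 7 (PLAU, EGR1, KRT14, KRT16, AXL, VIM and SPRR1B). Without control replicate 4 there were 22, of which 13 were among the 14, and without control replicate 3 and treated replicate 2 there were 13 and 14, of which 9 and 10 were. All 14 genes kept their direction in each of these fits. Nothing in the labels says that the libraries of a group came from separate cultures, so the p-values measure the spread between these libraries, which may be technical.

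**Figure D2:**
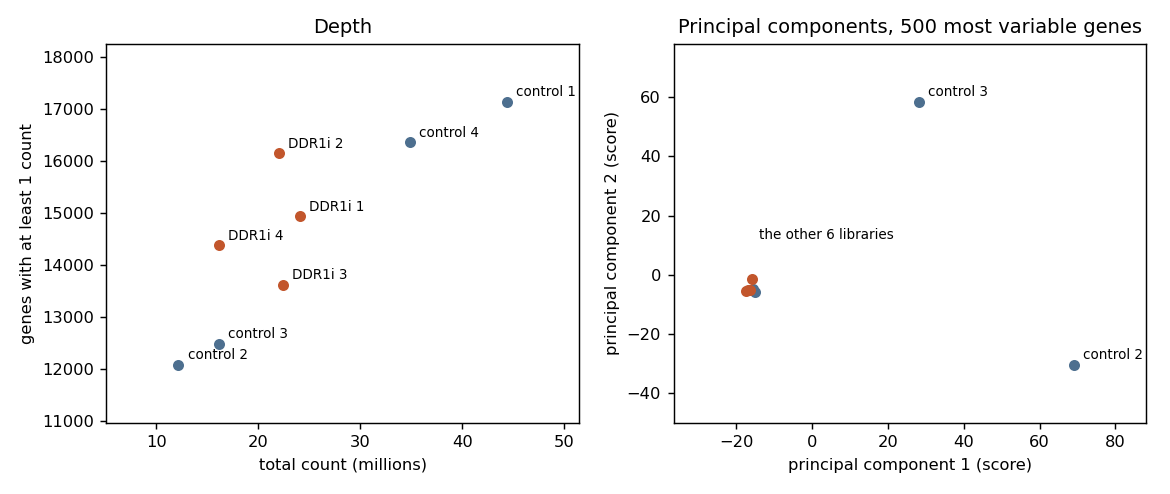
The left panel plots each library's total count against the number of genes with at least 1 count, and the right panel its scores on the first pair of principal components. Control libraries are blue and treated libraries orange, with control replicates 2 and 3 at the lower left of the first panel and far from the cluster of 6 in the second.

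Markers of mammary basal epithelium were present in every library. All 10 were expressed, with a summed level of 17488 to 21891 CPM in the controls and 13593 to 18776 CPM in the treated cells. Luminal markers summed to 2529 to 3661 CPM in the controls and 2830 to 3465 CPM in the treated cells. Markers of fibroblasts summed to at most 29.0 CPM and those of endothelial cells to at most 2.55 CPM in any library. Immune markers summed to between 21.5 and 44.2 CPM over all 8 libraries, and CD68, a lysosomal protein that many cell types make, was the highest of them at a mean of 21.2 CPM. In bulk RNA, fewer cells of a type and less RNA per cell cannot be told apart.

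The receptor and the RUNX factors did not pass the test with edgeR or DESeq2. DDR1 itself stood at 151, 153, 159 and 123.5 CPM in control replicates 1 to 4 and at 119, 109, 135 and 147 CPM in the treated libraries. These ranges overlapped, and its log2 fold change was -0.20 ± 0.13 (SE), with an edgeR adjusted p of 0.998 and a 95% confidence interval from -0.47 to 0.06. DDR1i acts on the protein, so the transcript level does not check the treatment. DDR2, the second discoidin domain receptor, had 0 to 13 counts per library and was not tested. RUNX1 stood at 55.9, 37.0, 63.6 and 59.2 CPM in the controls and at 53.2, 59.9, 64.3 and 69.7 CPM in the treated libraries, with a log2 fold change of 0.19 ± 0.16 (SE, edgeR adjusted p = 0.998). For CBFB the log2 fold change was 0.04 ± 0.13 (SE), with a 95% confidence interval from -0.24 to 0.32. RUNX2 had 31 to 184 counts in 7 libraries and 0 in control replicate 2, and was not called, while RUNX3 had no count in any library. None of the 5 tested collagen receptors passed even an unadjusted p of 0.05.

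Of 7 genes that the study followed as RUNX1 targets, the main edgeR fit called none and DESeq2 called 1, MYC. Over all genes with a p-value, edgeR called 0.109% and DESeq2 0.379%. At an unadjusted p under 0.05 in edgeR, 1 was higher and 3 were lower, beside 2.4% and 2.35% of all tested genes. Of the 7, 6 had a log2 fold change below 0. MYC, a transcription factor of cell growth, stood at 542, 551, 509 and 523 CPM in the controls and at 430, 417, 396 and 432 CPM in the treated cells. All treated libraries lay below all controls, but its log2 fold change of -0.34 ± 0.09 (SE) had an edgeR adjusted p of 0.295 (unadjusted p = 0.0014) and a DESeq2 adjusted p of 0.0103. ID1, an inhibitor of basic helix-loop-helix factors, had a log2 fold change of -0.64 ± 0.20 (SE, edgeR adjusted p = 0.626). In an edgeR fit with a block for replicate number, ID1 had an adjusted p of 0.0157, though the labels name no pairing. CEBPD, a transcription factor of the C/EBP family, had a log2 fold change of -0.51 ± 0.18 (SE, edgeR adjusted p = 0.739). PLEC, which encodes the cytolinker plectin, was the member with a positive value, 0.43 ± 0.19 (SE, edgeR adjusted p = 0.998). The groups overlapped for these 3. DUT, ANP32B and STAT3 had values of -0.13, -0.11 and -0.18 on the log2 scale. The study reported these genes as responding to DDR1i in single-cell RNA-seq of primary breast organoids, not in these libraries. Organoids are a different cell system, and whether the directions match was not tested. In MCF10A cells with collagen and DDR1i, the study also reported changed RT-qPCR levels of further RUNX1 targets. It reported less RUNX1 and CBFB protein in such cells as well. These assays were not compared with the present values.

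Immediate early genes made the largest group among the genes called higher. Of 24 tested members of the immediate early and ERK response list, 4 were called higher (0.0778% of all tested genes were) and none lower (0.0311%). At an unadjusted p under 0.05, 11 of the 24 were higher and 1, MYC, was lower, beside 2.4% and 2.35% of all tested genes. The list's median log2 fold change was 0.33, against 0.0019 for all genes. EGR1, a zinc finger transcription factor and a classic immediate early gene, lies at chr5:137801168-137804992 (GRCh37). Its levels were 66.8, 49.3, 39.4 and 51.9 CPM in the controls and 245, 155, 392 and 284 CPM after collagen with DDR1i. The lowest treated library exceeded the highest control by a wide margin, and EGR1 rose 5.17-fold, with a log2 fold change of 2.37 ± 0.24 (SE, edgeR adjusted p = 0.00102). Treated libraries spread more than controls on this gene, 269 ± 98.3 CPM against 51.8 ± 11.3 CPM (mean ± SD, n = 4 each). Without control replicates 2 and 3 its log2 fold change was 2.17, with an edgeR adjusted p of 0.334.

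The promoter of EGR1 is shown because it carries the motif bound by serum response factor, the CArG box, a known route from ERK to immediate early genes. The sequence is that of RefSeq at chr5:138465229-138465528 (GRCh38.p14, plus strand), from 250 bases before to 50 after the gene's start, and the capitals mark 2 CArG boxes, at -105 and -83 from the start.
EGR1: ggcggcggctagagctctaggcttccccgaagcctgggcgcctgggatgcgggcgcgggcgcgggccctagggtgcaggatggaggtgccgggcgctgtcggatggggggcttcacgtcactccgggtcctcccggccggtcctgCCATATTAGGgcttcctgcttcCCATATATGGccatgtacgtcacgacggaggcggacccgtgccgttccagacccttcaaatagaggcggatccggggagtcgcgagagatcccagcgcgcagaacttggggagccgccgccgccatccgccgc
A CArG box on either strand was present in 1.29% of the 27305 RefSeq promoters of that length and in 1.0% of those of tested genes. Of the 14 called genes, 9 had a promoter in the table, and EGR1 was the single one of them with a CArG box. These matches describe sequence and do not show that a factor was bound.

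IER3, a stress-inducible regulator of cell survival, stood at 131, 109.6, 110.0 and 162 CPM in the controls and at 349, 194, 266 and 245 CPM in the treated libraries. It rose 2.06-fold, with no overlap between the groups (log2 fold change 1.04 ± 0.17, SE, edgeR adjusted p = 0.0235). FOSL1, which encodes the AP-1 subunit FRA1, stood at 126, 121, 170.4 and 195 CPM in the controls and at 274, 253, 292 and 356 CPM in the treated libraries. FOSL1 rose 1.92-fold, again without overlap (log2 fold change 0.94 ± 0.15, SE, edgeR adjusted p = 0.0235). IER2, an immediate early nuclear protein, stood at 89.4, 101, 81.4 and 91.7 CPM in the controls and at 190.0, 117, 166 and 158 CPM in the treated libraries. The groups did not overlap for IER2 either, which rose 1.74-fold (log2 fold change 0.79 ± 0.14, SE, edgeR adjusted p = 0.0439). Without control replicates 2 and 3, none of IER3, FOSL1 and IER2 passed, with log2 fold changes of 0.84, 0.87 and 0.80 and edgeR adjusted p of 0.208, 0.0936 and 0.0992.

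Other members of the group were named after their values were seen. Over the whole list of 24, 17 had a positive and 7 a negative log2 fold change. JUN, the principal partner of FOS proteins in AP-1, had a log2 fold change of 1.18 (unadjusted p = 0.00069) with means of 42.4 CPM in the controls and 96.3 CPM in the treated cells. FOS itself had means of 144 and 232 CPM, a log2 fold change of 0.69 and an unadjusted p of 0.079. DUSP6 and SPRY4, feedback inhibitors of the ERK pathway, had log2 fold changes of 0.61 and 0.46. None of these 4 passed edgeR's adjusted test, while DESeq2 called 6 of the list's members in all, beside 0.379% of genes with a p-value.

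**Figure D3:**
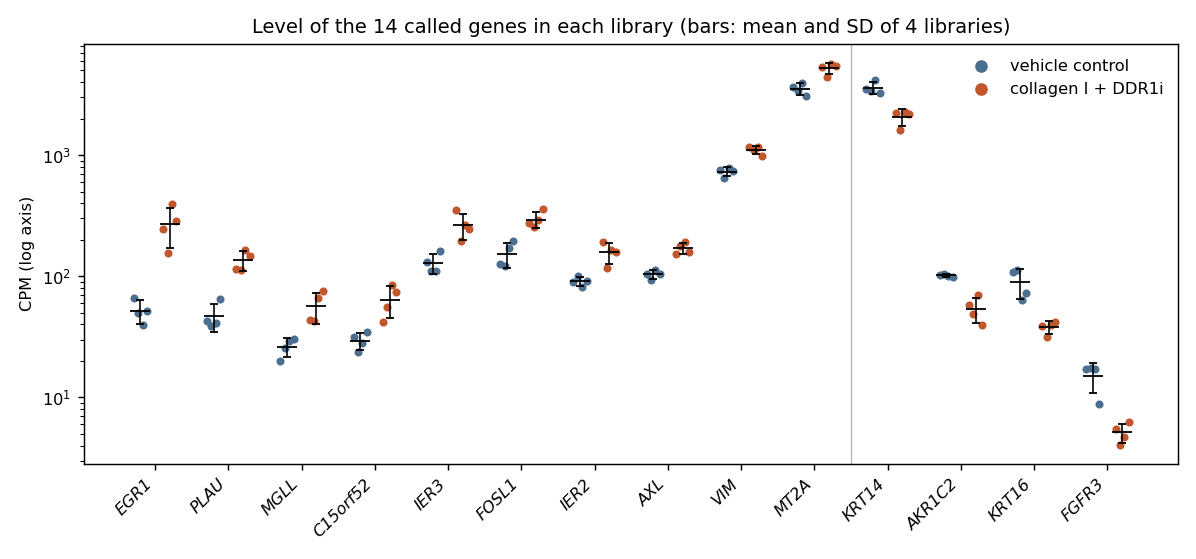
Points give the level of each of the 14 called genes in CPM on a logarithmic axis, for the 4 control libraries in blue and the 4 libraries with collagen I and DDR1i in orange, and the bars give the mean and SD of 4 libraries. To the left of the grey line are the 10 genes called higher, to the right the 4 called lower, and in no gene do the groups overlap.

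Genes of pericellular proteolysis formed the second group with a call. Of 15 tested plasminogen activators, matrix metalloproteinases and inhibitors, 1 was called higher (0.0778% of all tested genes were) and none lower (0.0311%). At an unadjusted p under 0.05, 7 were higher and 1 lower, beside 2.4% and 2.35% of all tested genes. The median log2 fold change was 0.49. PLAU, which encodes urokinase and lies at chr10:75668935-75677254 (GRCh37), stood at 42.7, 39.0, 40.7 and 64.9 CPM in the controls and at 116, 113, 166 and 146 CPM in the treated libraries. All treated libraries exceeded all controls, and PLAU rose 2.88-fold (log2 fold change 1.53 ± 0.18, SE, edgeR adjusted p = 0.00102). It was called in every alternative fit tried, including the one without control replicates 2 and 3 (log2 fold change 1.32, edgeR adjusted p = 0.0094). PLAUR, the urokinase receptor, stood at 43.1, 47.3, 49.7 and 48.04 CPM in the controls and at 70.9, 61.6, 88.2 and 92.5 CPM in the treated libraries. The groups did not overlap for PLAUR, but its log2 fold change of 0.73 ± 0.15 (SE) had an edgeR adjusted p of 0.0797 and a DESeq2 adjusted p of 0.00109. The gelatinase gene MMP2 and the membrane-anchored collagenase gene MMP14 had log2 fold changes of 1.19 ± 0.38 and 0.47 ± 0.15 (SE), with edgeR adjusted p of 0.624 and 0.650.

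Among keratins of the basal layer and of stressed epithelium, KRT14 and KRT16 fell. Of the 8 tested, 2 were called lower (0.0311% of all tested genes were) and none higher (0.0778%). All 8 had a log2 fold change below 0, and 5 were lower at an unadjusted p under 0.05, beside 2.35% of all tested genes. The median was -0.71. KRT14, the partner of keratin 5 in basal cells, lies at chr17:39738531-39743147 (GRCh37). It stood at 3519.9, 3378, 4201 and 3271 CPM in the controls and at 2214, 1597, 2264 and 2198 CPM in the treated libraries. The groups did not overlap, and KRT14 was 1.74-fold lower (log2 fold change -0.80 ± 0.12, SE, edgeR adjusted p = 0.0133). KRT16, a stress keratin of activated epithelium, lies beside it at chr17:39766030-39772151. Levels of KRT16 were 108, 113, 63.6 and 73.1 CPM in the controls and 38.6, 31.6, 39.4 and 42.2 CPM in the treated libraries. It was 2.36-fold lower, with no overlap (log2 fold change -1.24 ± 0.18, SE, edgeR adjusted p = 0.0133), and remained called without control replicates 2 and 3 (-1.26, edgeR adjusted p = 0.0029). KRT14 without these controls had a log2 fold change of -0.72 and an edgeR adjusted p of 0.0699. Neither was called when control replicate 2 or treated replicate 3 alone was left out.

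KRT17 and KRT5 had the same sign without passing edgeR's adjusted test. KRT17 stood at 1945, 1699, 2975 and 2132 CPM in the controls and at 1183, 778, 1379 and 1497.5 CPM in the treated libraries, with a log2 fold change of -0.86 ± 0.20 (SE, edgeR adjusted p = 0.213), and it passed with DESeq2 (adjusted p = 0.0044). KRT5 had a smaller difference, -0.26 ± 0.10 (SE, edgeR adjusted p = 0.794). KRT14, KRT16 and KRT17 are near-identical over parts of their coding sequence and have pseudogenes, so reads could be shared among them in the counting, and their separate values are uncertain. Of the 5 tested keratins of luminal and simple epithelia edgeR and DESeq2 called none and none passed an unadjusted p of 0.05 in edgeR, and their median log2 fold change was 0.10.

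Genes of squamous differentiation were not called by edgeR, but 7 of 27 tested were lower and none higher at an unadjusted p under 0.05, beside 2.35% and 2.4% of all tested genes. The list median was -0.56. With DESeq2 and limma-voom in place of edgeR, 6 and 5 members passed an adjusted p of 0.05. These tools called 0.379% and 0.529% of all genes with a p-value. PPL, which encodes the cornified envelope protein periplakin, stood at 43.7, 29.5, 28.1 and 14.7 CPM in the controls and at 13.8, 10.2, 8.12 and 6.52 CPM in the treated libraries. Its highest treated library lay just below its lowest control, and its log2 fold change was -1.58 ± 0.30 (SE, edgeR adjusted p = 0.0554). DSG3, a desmosomal cadherin, had -0.59 ± 0.13 (SE, edgeR adjusted p = 0.137), and AQP3, a water and glycerol channel, had -1.20 ± 0.28 (SE, edgeR adjusted p = 0.184). The calprotectin subunits S100A8 and S100A9 had log2 fold changes of -1.14 and -0.74, with edgeR adjusted p of 0.295 and 0.179. For all 5 genes every treated library lay below every control, beside 1.53% of all tested genes. The 5 were named by their small p, so this separation is no separate support.

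FGFR3 and AKR1C2 completed the genes called lower. FGFR3, a receptor tyrosine kinase for fibroblast growth factors, stood at 17.2, 17.5, 17.05 and 8.85 CPM in the controls and at 5.49, 4.08, 4.71 and 6.27 CPM in the treated libraries. It was 2.94-fold lower, without overlap, although control replicate 4 lay near the treated range (log2 fold change -1.56 ± 0.29, SE, edgeR adjusted p = 0.0487). AKR1C2, an aldo-keto reductase that inactivates dihydrotestosterone, stood at 102, 105, 101 and 99.2 CPM in the controls and at 58.2, 48.4, 69.5 and 39.97 CPM in the treated libraries. It was 1.88-fold lower (log2 fold change -0.91 ± 0.15, SE, edgeR adjusted p = 0.0262). AKR1C1 and AKR1C3 are close paralogs of AKR1C2, so reads could be shared among them in the counting, and its separate value is uncertain. AKR1C1 had a log2 fold change of -0.55 ± 0.21 (SE, edgeR adjusted p = 0.853).

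AKR1C2 was also the single call among the 23 tested targets of NRF2, the transcription factor of the antioxidant response. Over all tested genes 0.0311% were called lower. None of the 23 was higher and 5 were lower at an unadjusted p under 0.05, beside 2.4% and 2.35% of all tested genes. The list median was -0.10. SLC7A11, the cystine transporter, stood at 94.9, 63.4, 26.1 and 71.1 CPM in the controls and at 35.4, 40.2, 23.4 and 36.0 CPM in the treated libraries, which overlapped (log2 fold change -0.93 ± 0.30, SE, edgeR adjusted p = 0.670). SLC7A11 was called in the fit without control replicates 2 and 3, and control replicate 3 was its lowest control. FTH1, the heavy chain of the iron store ferritin, had a log2 fold change of -0.39 ± 0.13 (SE, edgeR adjusted p = 0.644).

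**Figure D4:**
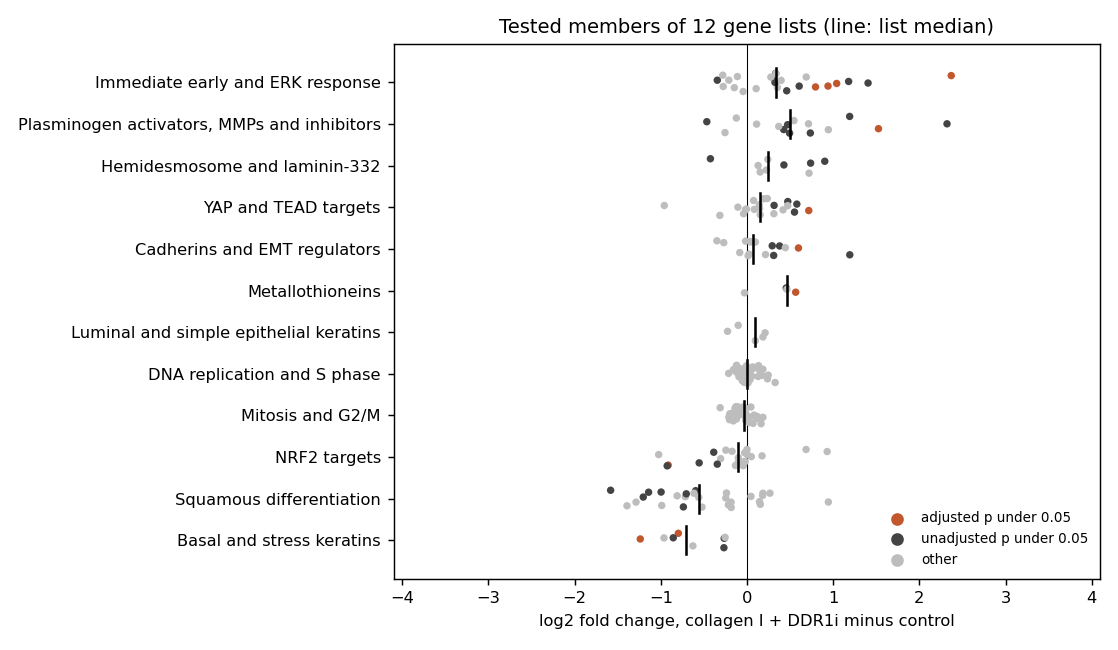
Points give the log2 fold change, collagen with DDR1i minus control, of the tested members of 12 gene lists, and the vertical lines give each list's median. Orange marks an adjusted p under 0.05, dark grey an unadjusted p under 0.05 and light grey the rest, and the medians run from 0.49 for the proteolysis genes to -0.71 for the basal keratins, with both proliferation lists near 0.

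Among cadherins and regulators of epithelial-mesenchymal transition, 1 of 16 tested genes was called higher, VIM, beside 0.0778% of all tested genes. At an unadjusted p under 0.05, 5 were higher and none lower, beside 2.4% and 2.35% of all tested genes. The list's median was 0.07. VIM, the intermediate filament protein of mesenchymal cells that MCF10A cells also make, stood at 747, 643, 789 and 742 CPM in the controls and at 1165, 1106, 1171 and 979 CPM in the treated libraries. It rose 1.51-fold, without overlap (log2 fold change 0.60 ± 0.10, SE, edgeR adjusted p = 0.0251). ZEB1, a repressor of epithelial genes, stood at 4.70, 4.83, 2.01 and 4.74 CPM in the controls and at 6.97, 8.996, 16.1 and 5.19 CPM in the treated libraries (log2 fold change 1.19 ± 0.40, SE, edgeR adjusted p = 0.717). SNAI2, a repressor active in basal mammary cells, had 0.31 ± 0.12 (SE, edgeR adjusted p = 0.860).

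AXL was the single call among 21 tested YAP and TEAD targets, beside 0.0778% of all tested genes called higher. At an unadjusted p under 0.05, 5 of the 21 were higher and none lower, beside 2.4% and 2.35% of all tested genes. The median of the 21 was 0.15. AXL, a receptor tyrosine kinase for GAS6, stood at 105, 92.8, 113 and 104 CPM in the controls and at 153, 179, 191 and 158 CPM in the treated libraries. The groups were clearly separate, and AXL rose 1.64-fold (log2 fold change 0.72 ± 0.12, SE, edgeR adjusted p = 0.0235). CTGF, a matricellular protein and the best known YAP target, overlapped between the groups (log2 fold change 0.47 ± 0.21, SE, edgeR adjusted p = 0.998).

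MT2A was the call among 4 tested metallothioneins, small proteins that bind zinc and copper, beside 0.0778% of all tested genes called higher. It stood at 3664, 3372, 3969 and 3049 CPM in the controls and at 5295, 4402, 5632 and 5459 CPM in the treated libraries, and rose 1.48-fold without overlap (log2 fold change 0.56 ± 0.10, SE, edgeR adjusted p = 0.0498). MT1E had a log2 fold change of 0.46 ± 0.14 (SE, edgeR adjusted p = 0.605). Metallothionein genes are close copies among which reads could be shared, so their separate values are uncertain. MGLL, which encodes monoacylglycerol lipase, stood at 20.0, 25.3, 29.0 and 30.5 CPM in the controls and at 43.2, 43.1, 66.4 and 75.1 CPM in the treated libraries, and rose 2.17-fold (edgeR adjusted p = 0.0462). C15orf52, now named CCDC9B, stood at 31.4, 23.5, 28.1 and 34.7 CPM in the controls and at 41.7, 55.3, 84.0 and 74.7 CPM in the treated libraries, and rose 2.16-fold (edgeR adjusted p = 0.0462). Neither gene overlapped between the groups. AXL, VIM, MT2A, MGLL, C15orf52, AKR1C2 and FGFR3 lost their calls without control replicates 2 and 3, with edgeR adjusted p of 0.0751, 0.168, 0.154, 0.245, 0.297, 0.0669 and 0.120.

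The promoters of VIM and MT2A are shown as those among the genes called higher that hold the RUNX core motif and the AP-1 motif. For VIM, RefSeq gives chr10:17227991-17228290, and for MT2A chr16:56608334-56608633 (both GRCh38.p14, plus strand). Capitals mark TGTGGT at -96 in VIM and TGANTCA at -104 in MT2A, counted from the gene's start.
VIM: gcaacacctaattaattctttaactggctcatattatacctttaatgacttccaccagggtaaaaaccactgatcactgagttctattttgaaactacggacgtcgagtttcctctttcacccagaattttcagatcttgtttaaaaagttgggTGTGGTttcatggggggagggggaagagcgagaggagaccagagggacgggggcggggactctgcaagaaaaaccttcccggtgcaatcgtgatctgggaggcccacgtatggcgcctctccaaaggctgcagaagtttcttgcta
MT2A: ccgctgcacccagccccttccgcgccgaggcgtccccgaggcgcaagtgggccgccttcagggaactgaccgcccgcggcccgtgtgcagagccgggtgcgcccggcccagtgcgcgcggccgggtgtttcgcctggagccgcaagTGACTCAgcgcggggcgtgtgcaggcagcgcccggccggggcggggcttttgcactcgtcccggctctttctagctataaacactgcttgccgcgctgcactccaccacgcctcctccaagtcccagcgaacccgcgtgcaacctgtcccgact
On either strand, TGTGGT occurred in 13.1% of all RefSeq promoters of this length and in 9.28% of those of tested genes, and TGANTCA in 7.76% and 4.58%. AKR1C2 was the other called gene with TGTGGT. Each of the 3 promoters printed held 0 matches to the other 2 motifs. KRT16, KRT14, IER3, FOSL1 and MGLL had no entry.

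Genes of adhesion to the basement membrane varied widely between libraries and were called by neither the main edgeR fit nor DESeq2. LAMB3 and LAMA3, chains of the laminin-332 on which basal cells rest, stood at 727 to 1248 and 506 to 1141 CPM in the controls and at 1139.5 to 2857 and 756 to 1771 CPM in the treated libraries. Their log2 fold changes were 0.90 ± 0.31 and 0.74 ± 0.32 (SE), with edgeR adjusted p of 0.846 and 0.998, and the ranges overlapped. In the edgeR fit with a block for replicate number, LAMB3 and LAMA3 were called, with adjusted p of 0.0023 and 0.0021. The labels name no pairing, and whether the replicate numbers mark pairs was not tested. Of 9 tested hemidesmosome and laminin-332 genes, 3 were higher and 1 lower at an unadjusted p under 0.05. The shares over all tested genes were 2.4% and 2.35%. Among matricellular proteins TNC, which encodes tenascin-C, stood at 24.1 to 30.6 CPM in the controls and at 37.4 to 64.7 CPM in the treated libraries, without overlap (log2 fold change 0.75 ± 0.18, SE, edgeR adjusted p = 0.213, DESeq2 adjusted p = 0.025).

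ID3, a target of BMP-SMAD signalling like ID1, stood at 99.1 to 138 CPM in the controls and at 56.3 to 96.5 CPM in the treated libraries. Its log2 fold change was -0.68 ± 0.16 (SE, edgeR adjusted p = 0.212, DESeq2 adjusted p = 0.0312). Without control replicates 2 and 3 it was -0.48 (edgeR adjusted p = 0.699). Among 12 tested EGF receptor family genes and ligands, EREG, AREG and TGFA had log2 fold changes of -0.61, 0.33 and 0.39, of which none passed the adjusted test with edgeR or DESeq2. Among mammary lineage transcription factors, KLF5 had a value of -0.37 and BCL11B one of 1.05, with no overlap between the groups but edgeR adjusted p of 0.670 and 0.339. NOTCH3 and NOTCH1 had log2 fold changes of -1.37 ± 0.53 and -0.32 ± 0.15 (SE), with edgeR adjusted p of 0.871 and 0.998. The cytokine gene CSF3 stood at 25.1 to 50.2 CPM in the controls and at 56.3 to 77.8 CPM in the treated libraries (log2 fold change 0.89 ± 0.20, SE, edgeR adjusted p = 0.173, DESeq2 adjusted p = 0.0127).

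Further list members missed edgeR's adjusted test, and ATP2B4, CTSB, CSF2 and GADD45A among them passed with DESeq2 (adjusted p = 0.00068, 0.0065, 0.0224 and 0.0319). GADD45A, a stress-inducible growth arrest gene, stood at 24.5 to 33.1 CPM in the controls and at 40.5 to 47.8 CPM in the treated libraries, without overlap (log2 fold change 0.58 ± 0.15, SE, edgeR adjusted p = 0.335). NT5E, the ecto-5'-nucleotidase CD73, and CNN3, an actin-binding calponin, had log2 fold changes of 0.55 ± 0.18 and 0.55 ± 0.16 (SE) and overlapped between the groups. ATP2B4, a plasma membrane calcium pump, stood at 32.2 to 43.99 CPM in the controls and at 50.4 to 78.8 CPM in the treated libraries (log2 fold change 0.83 ± 0.16, SE, edgeR adjusted p = 0.0638). The lysosomal protease genes CTSB and CTSD had opposite signs, 0.45 ± 0.10 and -0.46 ± 0.15 (SE), with edgeR adjusted p of 0.173 and 0.626. SESN2, a stress-induced regulator of mTORC1, had -0.96 ± 0.30 (SE, edgeR adjusted p = 0.605), with control replicate 4 (17.5 CPM) below all treated libraries. CSF2, which encodes GM-CSF, was at 0 in control replicates 2 and 3, at 0.111 and 0.116 CPM in the other controls, and at 0.746 to 2.03 CPM in the treated libraries, and no fold is given.

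The genes that followed the called ones by p were KLF10, a transcription factor induced by TGF-beta, and ANTXR2, a receptor for basement membrane proteins and anthrax toxin, among those with a positive value. Their log2 fold changes were 0.73 ± 0.14 and 0.93 ± 0.18 (SE, edgeR adjusted p = 0.0518 and 0.0586), and every treated library exceeded every control. Among those with a negative value, MAOA, which encodes monoamine oxidase A, stood at 58.8, 51.2, 38.0 and 41.6 CPM in the controls and at 29.3, 24.6, 16.6 and 21.2 CPM in the treated libraries (log2 fold change -1.05 ± 0.20, SE, edgeR adjusted p = 0.0518). TRIM29, FAM213A, ABLIM1 and TFCP2L1 had log2 fold changes of -0.49, -0.65, -0.56 and -0.84, with edgeR adjusted p between 0.132 and 0.180. All 7 genes of this paragraph passed with DESeq2, with adjusted p of at most 0.015.

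Proliferation genes differed little between the groups. Of 38 tested genes of DNA replication and S phase, edgeR and DESeq2 called none and none passed an unadjusted p of 0.05 in edgeR, and their log2 fold changes lay between -0.21 and 0.33 around a median of -0.0026. The 38 tested genes of mitosis gave the same counts, with values between -0.31 and 0.18 and a median of -0.03. Of 83 tested cytosolic ribosomal protein genes, 75 had a positive value and neither tool called any, with a median of 0.09. At an unadjusted p under 0.05 in edgeR, 2 of the 83 were higher, beside 2.4% of all tested genes. Neither edgeR nor DESeq2 called any of 29 tested interferon-stimulated genes, 28 genes of the ATF4 and unfolded protein response or 23 genes of cholesterol synthesis, of which 2, 4 and 3 had an unadjusted p under 0.05 in edgeR. Of 24 tested p53 targets edgeR called none, with 3 at an unadjusted p under 0.05. DESeq2 called 1 of them, GADD45A, beside 0.379% of genes with a p-value. For these 4 lists, the share of all tested genes with an unadjusted p under 0.05 was 4.75%.

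The cells given collagen alone place these levels in context, without a test, because they share the controls and were not part of this fit. CPM scaled over 12 libraries differed from the 8-library values by factors of 0.983 to 1.003. EGR1 stood at 109, 72.3 and 48.7 CPM in collagen replicates 1, 2 and 4 and at 82.8 CPM in replicate 3, which the study removed as an outlier. The means of EGR1 were 51.3 CPM in the controls and 266 CPM with DDR1i. PLAU stood at 67.6, 53.2, 94.2 and, in replicate 3, 80.3 CPM with collagen alone, beside means of 46.3 and 134 CPM. IER3 was at 207, 171, 248 and, in replicate 3, 122 CPM with collagen alone, beside means of 127 and 262 CPM. Of the 4 collagen values, 3 lay between both means for EGR1, 4 for PLAU and 3 for IER3.

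For genes called lower, KRT14 with collagen alone was at 3405, 3320.3, 4734 and, in replicate 3, 3339 CPM, beside means of 3552 CPM in the controls and 2051 CPM with DDR1i. KRT16 was at 86.8, 93.2, 83.1 and, in replicate 3, 62.6 CPM, beside 88.6 and 37.6 CPM. AKR1C2 was at 102, 114, 97.4 and, in replicate 3, 99.3 CPM, beside 101 and 53.5 CPM. FGFR3 was at 16.6, 8.49, 6.82 and, in replicate 3, 9.82 CPM, beside 14.96 and 5.10 CPM, so 3 of its 4 collagen values lay between both means. AXL was at 82.5, 109.6, 92.9 and, in replicate 3, 120.1 CPM, beside 102 and 169 CPM, so replicates 2 and 3 lay between both means. VIM, MT2A, FOSL1, IER2 and C15orf52 reached 1119, 5113, 263, 126 and 54.6 CPM with collagen alone. Their lowest values with DDR1i were 974, 4415, 254, 117 and 41.2 CPM, so these ranges overlapped. MGLL reached 38.1 CPM with collagen alone, below its lowest value of 42.7 CPM with DDR1i.

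**Figure D5:**
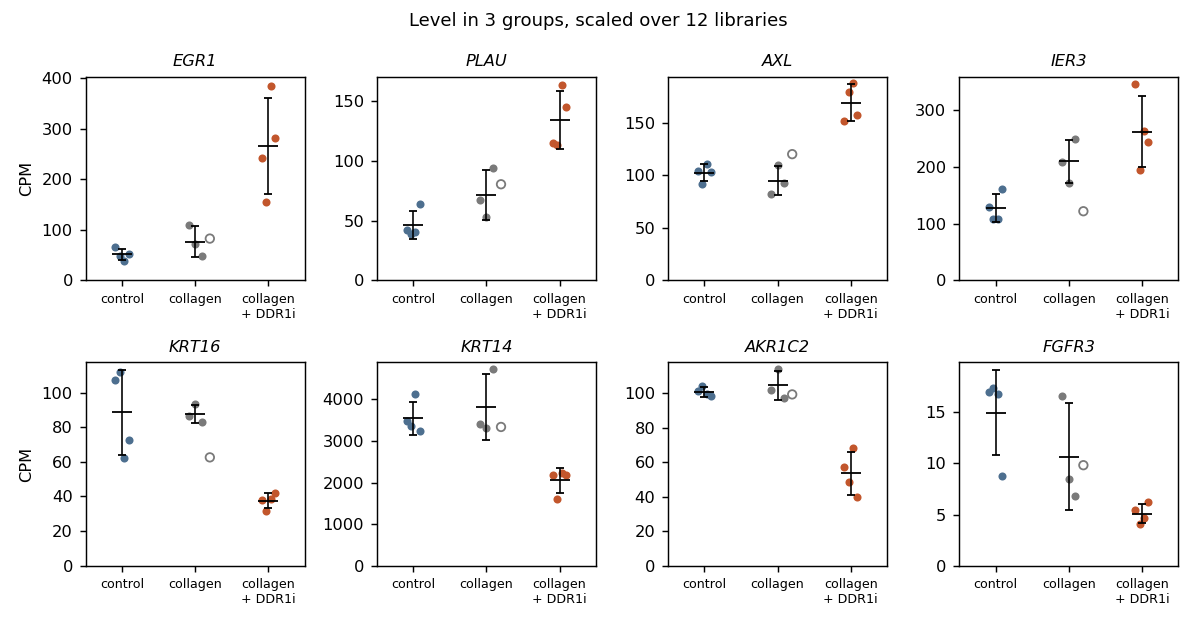
Each panel gives the CPM of 1 gene, scaled over 12 libraries, in the control, collagen-alone and collagen with DDR1i libraries, with bars for the mean and SD of 4, 3 and 4 libraries. The open circle is collagen replicate 3, left out of the bar. KRT14, KRT16, AKR1C2 and FGFR3 with collagen alone lie above every library with DDR1i. For FGFR3 the margin is small, 6.82 CPM against 6.24 CPM.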

How the data were processed

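RNA from MCF10A cells was sequenced as paired 150-base reads, and per the labels reads were aligned with STAR to hg19 (GRCh37). The deposited table holds whole-number counts per gene symbol made by the authors, not normalized. The counting tool, annotation and strand setting are not given in the sources used here, so antisense and overlapping genes cannot be separated. Of 26475 names, 28 had been turned into calendar dates by spreadsheet software and were not named. No column of counts was left unassigned to a sample.

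Counts of 4 control and 4 collagen with DDR1i libraries were filtered with filterByExpr, scaled with TMM and tested with the robust quasi-likelihood test of edgeR 4.0.16 (R 4.3.3), with no covariate. CPM are counts rescaled to a common total with TMM-scaled library sizes, SE is the size of the log2 fold change divided by the root of F, and n is 4 per group. The biological coefficient of variation was 0.292. The genes named were the study's DDR1 and RUNX genes, the 12 per direction with the smallest p, up to 4 members per gene list with the smallest p, and the 6 per direction with the largest called change at 5 CPM or more. The members and lists were chosen with earlier results of these data known. JUN, FOS, DUSP6 and SPRY4 were named outside these rules, after their values were seen. Positions and lengths are from GENCODE v44lift37, where 22606 names matched a current and 1329 an older symbol. The list of mitochondrially encoded genes had no tested member. The scripts were tested on simulated data. No pair of replicates agreed within sampling noise (chi-square per degree of freedom at least 20.7). DESeq2 1.42.0 and limma 3.58.1 served as alternatives.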

Additional observations from a re-analysis of the deposited data

Results flagged for a closer look

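In 58 groups of 4 values (depth measures of the libraries and the CPM of the genes called or followed by the study), 4 had 1 library far from the other 3, by a gap, as a share of the group's range, above Dixon's 95% critical value for 4 values. Chance flags about 1 in 20 such groups, or 2.9 of 58. FGFR3 in control replicate 4 was at 8.85 CPM against 17.05 to 17.5 CPM in the other controls (gap over range 0.953). KRT14 in treated replicate 2 was at 1597 CPM against 2198 to 2264 CPM (ratio 0.9004). PLAU in control replicate 4 was at 64.9 CPM against 39.0 to 42.7 CPM (ratio 0.857), and STAT3 in control replicate 2 at 121 CPM against 155 to 162 CPM (ratio 0.844).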

How the results depend on the processing

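The 14 called genes kept their direction in every alternative, but how many were called depended on the processing. The count was 69 with DESeq2 (43 higher, 26 lower), 68 with limma-voom and sample quality weights (45 and 23), 45 with no filter on low counts (31 and 14), 610 at an unadjusted p (308 and 302), 7 at an absolute log2 fold change over 1 (5 and 2), 9 with the transcript length trend removed (4 and 5), 3 without both control replicates 2 and 3 (1 and 2), and 17 without these and treated replicate 3 (5 and 12), a setting chosen after seeing the data. All 14 were called with DESeq2, with limma-voom and with no filter. With other scaling, a stricter filter, thinned counts, robust fitting off or the remaining libraries in the fit, the count lay between 10 and 21. Leaving out 1 library gave 2 to 22 genes, 2 to 12 higher and 0 to 10 lower. The count of 0 lower was in edgeR without control replicate 2, where 529 genes had an unadjusted p under 0.05. The causes were not tested.

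The replicate block gave 57 genes (37 higher, 20 lower), and 51 (21 and 30) with the length trend removed as well. The labels share only a number across groups. Deviations of same-numbered libraries correlated at 0.0913, -0.0262, 0.0906 and 0.184. Treated replicates 1, 3 and 4 correlated best with the control of the same number, and treated replicate 2 with control replicate 1 (0.169). The labels name no pairing, so the main fit used none, and whether the numbers mark pairs was not tested.

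RUNX2 and CBFB, not called in the main comparison or in any alternative, changed sign. The log2 fold change of RUNX2 was -0.0120 with limma-voom, -0.0466 without control replicates 2 and 3, -0.0257 without these and treated replicate 3, and from -0.0118 to 0.763 with 1 library left out. The log2 fold change of CBFB was -0.0774 with the length trend removed, -0.0682 with that and the replicate block, and from -0.0181 to 0.0968 with 1 library left out. Control replicates 2 and 3, the shallowest controls and the libraries with the fewest genes detected, limit what can be seen of genes at low counts. Control replicate 3 had 12480 genes detected at a total of 16123386, and treated replicate 4 had 14381 at a total of 16173156. The cause of this difference was not tested.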
